A study of Mus musculus with 58 samples.

Results

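The nuclear-encoded subunits of the respiratory chain were followed in primary mouse CD4+ T cells of 3 genotypes, before and after stimulation in culture. Members were chosen by symbol alone, with no measured value: the Nduf subunit names without the Ndufaf assembly factors, the Sdh genes, and all symbols that begin with Uqcr, with Cox4 to Cox8 followed by a letter a to c, or with Atp5. This gave 83 genes of the 24028 rows of the count table: 35 of complex I, 4 of complex II, 8 of complex III, 18 of complex IV (with Ndufa4 and Ndufa4l2, which are now assigned to that complex), 17 of complex V and the pseudogene Ndufs5-ps. The name pattern misses Cox4i1, Cox4i2, Ndufab1, Cyc1 and Cycs, which were kept as a list of their own. It also holds Cox7a2l, which is counted with complex IV although its product is better known as an assembly factor that joins complexes III and IV.

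The respiratory chain sits in the inner mitochondrial membrane. Complex I takes electrons from NADH and complex II from succinate, coenzyme Q carries them to complex III, cytochrome c carries them on to complex IV, and complex V uses the proton gradient that complexes I, III and IV build up to make ATP. Most subunits are encoded in the nucleus and a small core in mitochondrial DNA, so the complexes are built from both genomes. Naive T cells are small and quiescent, and cells activated through the antigen receptor and CD28 enlarge their mitochondria and raise both glycolysis and respiration before they divide.

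The study compared 58 RNA-seq libraries in 15 groups. Per the series' design text, KO cells (T1792 delta/delta) came from CD4cre.miR-17∼92lox/lox mice, which lose the miR-17∼92 microRNA cluster where the Cd4-driven Cre is active, TG cells (T1792 tg/tg) from CD4cre.Rosa26loxSTOPloxCAG-miR-17∼92Tg mice, in which that Cre removes a stop cassette before a transgenic copy of the cluster, and WT cells from wildtype mice, for which no Cre is named. Lymph nodes and spleens of 10 animals of both sexes were combined and the naive CD4+ T cells enriched by kit; the age of the mice is not given in the sources used here. Each genotype was sampled without culture (naive) and at 24 h or 48 h of stimulation by plate-bound antibodies, with anti-CD28 at 0.2 µg/ml throughout. The anti-CD3 coating was 0.25 µg/ml for the very weak and 0.5 µg/ml for the weak stimulus, and IL2 was present at 50 U/ml. Poly(A) RNA was sequenced as single-end reads from a stranded library kit. Every group held 4 libraries except naive WT and naive KO cells, which held 3 (replicates 1, 2 and 4). The labels do not say which libraries came from separate pools of mice, so p-values measure the spread between these libraries, part of which may be technical.

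Library totals ran from 19.2 M to 20.8 M counts, and the 83 members took 1.16% of all counts. The filter on low counts passed 79 members. Cox7b2 and Cox8c had 0 counts in all 58 libraries, which allows up to 0.00263 CPM (counts per 1000000 counts of a library) over the 1142 M counts in all, counting error only, and Cox8b and Ndufa4l2 had 9 and 11 counts in all. Of the 13 mitochondrially encoded subunits 0 were in the table, so they are not analysed here. The Mir17 row, which lies in the deleted cluster, held 10 counts in 3 naive and 57 in 16 stimulated WT libraries, 3 and 2 counts in the same numbers of KO libraries, and 542 counts in 4 naive and 140 in 16 stimulated TG libraries. The CD4 T cell markers summed to at least 1167 CPM in every library. Markers of other blood cells were higher in the naive libraries: summed B cell markers ran from 146 to 410 CPM there and from 13.6 to 81.1 CPM after stimulation, and summed myeloid markers from 95.7 to 330 against 1.02 to 6.44 CPM. In bulk RNA, fewer cells of a type and less RNA per cell cannot be told apart. Among KO cells under the very weak stimulus for 48 h, replicate 3 stood apart from the other 3 libraries, and the sums and counts it moves most are given with and without it.

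The promoters of these genes are known for sites of NRF1 and of GABP, an ETS family factor. RefSeq windows (build GRCm38.p6, 250 bases before to 50 after a gene's start) were found for 68 of the 83 members. All motifs were searched on both strands. The NRF1 core GCATGCGC was in the windows of 10 members (14.7%) against 3.05% of 27025 genes with a window. The full NRF1 palindrome, which is that core with GC before it, was in 5 of these members (7.35%) against 1.07%. Shares for the others were 17 (25%) against 9.93% for the ETS motif CCGGAAG, 10 (14.7%) against 3.19% for the YY1 motif AAGATGGC, and 30 (44.1%) against 41.1% for CCAAT. The background was every gene with a window, not only genes detected in these cells, and was not matched to the members in base content. Whether the shares differ from those of other expressed genes was not tested. A match is a run of letters and does not show that a factor binds there. The 6 stretches printed here show a match in each complex, 5′ to 3′ on the gene's own strand with the motif in capitals. The match starts 60 bases before the start of Ndufa11, 54 before Sdhb, 46 before Sdhd (in the reverse direction), 66 before Uqcr11, 162 before Cox6a1 and 50 before Atp5k. The stretches lie at chr17:56717677-56717736 (+) for Ndufa11, chr4:140961192-140961249 (+) for Sdhb, chr9:50603864-50603920 (-) for Sdhd, chr10:80406856-80406912 (-) for Uqcr11, chr5:115349086-115349145 (-) for Cox6a1 and chr5:108434415-108434474 (-) for Atp5k.
Ndufa11, complex I, NRF1 palindrome: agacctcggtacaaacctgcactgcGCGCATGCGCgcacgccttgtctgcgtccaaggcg
Sdhb, complex II, NRF1 core: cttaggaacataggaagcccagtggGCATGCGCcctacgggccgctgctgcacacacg
Sdhd, complex II, ETS motif: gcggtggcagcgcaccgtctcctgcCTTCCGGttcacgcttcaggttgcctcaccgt
Uqcr11, complex III, ETS motif: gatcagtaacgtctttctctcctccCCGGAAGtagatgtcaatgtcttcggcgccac
Cox6a1, complex IV, NRF1 palindrome: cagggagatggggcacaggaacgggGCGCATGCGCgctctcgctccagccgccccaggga
Atp5k, complex V, NRF1 palindrome: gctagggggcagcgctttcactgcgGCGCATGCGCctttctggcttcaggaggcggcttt

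Levels of different genes were compared per length, as mean CPM per kilobase of the gene width that the deposited table gives. In naive WT cells the median of the 79 tested members was 66.4 CPM per kb, and it was 120 under the weak stimulus at 24 h. By complex the median levels in naive WT cells were 46.8 for complex I, 65.2 for II, 83.5 for III, 96.1 for IV and 135 CPM per kb for V, and under the weak stimulus at 24 h they were 94.7, 148, 162, 214 and 242 in the same order. The order of the complexes was the same in both states. Atp5b, the catalytic beta subunit of ATP synthase, stood highest with 366 CPM per kb in naive and 1120 in stimulated cells, followed under the weak stimulus by the alpha subunit gene Atp5a1 (625) and by Atp5g3, which encodes the rotor ring subunit c (521). At the low end, Cox6a2 and Cox7a1, subunits best known from heart and skeletal muscle, and Cox6b2, known from testis, were near 0, Atp5g2, another gene for subunit c, was at 1.97, and Ndufa11 of the complex I membrane arm was at 14.6 CPM per kb in the same stimulated group.

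Summed over all members without the pseudogene, respiratory chain messages made up 6438 ± 621 CPM in naive WT cells (SD, n = 3). The sums were 12678 ± 672 under the very weak and 12564 ± 408 CPM under the weak stimulus at 24 h, and 12760 ± 830 and 12424 ± 378 CPM at 48 h (n = 4 each). The stimulated groups of WT cells thus stood 1.93 to 1.98 times above the naive level. Complex V had the widest step, 2.28 to 2.38 times, from 2494 ± 235 CPM. The step was 1.61 to 1.70 times for complex I (from 1757 ± 145), 1.66 to 1.90 for complex II (from 478 ± 24.2), 1.81 to 1.87 for complex III (from 721 ± 74.6) and 1.59 to 1.83 for complex IV (from 988 ± 145). No WT library of any stimulated group overlapped the naive WT libraries in any complex.

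KO and TG cells started from a higher naive mean. The naive sums were 7097 ± 1373 CPM in KO (n = 3) and 7753 ± 916 in TG cells (n = 4), and their libraries overlapped those of WT cells. KO sums after stimulation were 11868 ± 945 and 12976 ± 1323 CPM at 24 h (very weak, then weak stimulus) and 11284 ± 1943 and 10816 ± 236 CPM at 48 h, 1.52 to 1.83 times the naive mean, or 1.46 times in the very weak 48 h group without its replicate 3. TG sums were 12646 ± 706 and 13316 ± 701 CPM at 24 h and 13458 ± 566 and 13734 ± 975 CPM at 48 h, 1.63 to 1.77 times the naive mean. In KO cells under the very weak stimulus at 48 h the libraries held 10474, 9693, 14106 and 10863 CPM, and replicate 3 was far above the other 3, whose mean was 10343 ± 596 (n = 3). That library also had the lowest intronic share of counts of all 58, 12.4% against 15.7% to 15.9% in the other 3, and the part of this in its level was not tested. The only overlap between naive and stimulated libraries of a genotype, over 5 complexes and the total, was in that KO group for complex IV, where the lowest stimulated library had 1226 and the highest naive one 1381 CPM.

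**Figure D1:**
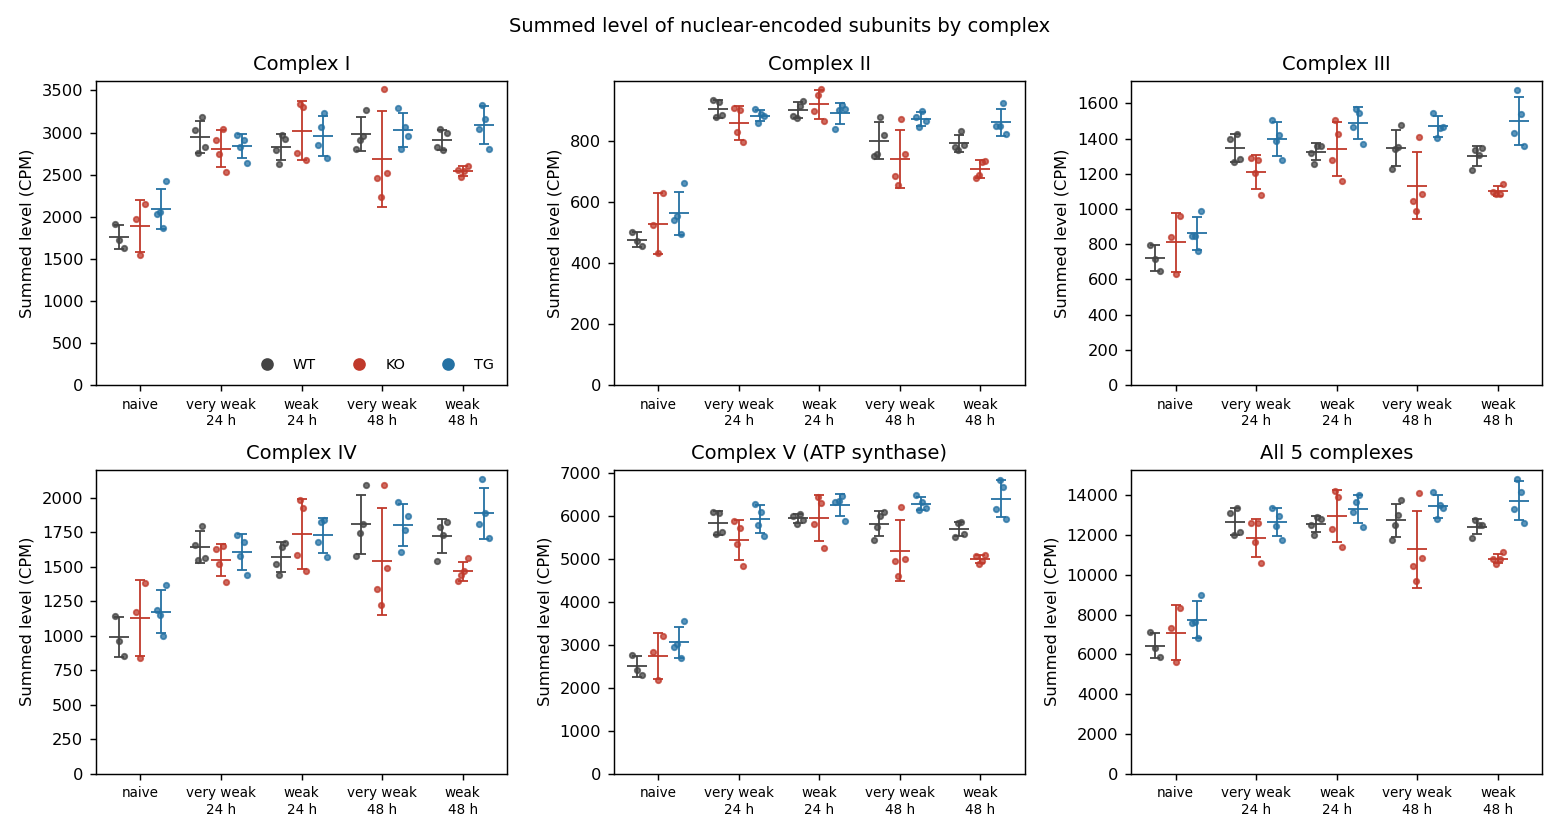
Summed CPM of the members of each complex and of all complexes (vertical axes, linear) in the 15 groups (horizontal axis), 1 point per library with the mean and SD of each group. Means of stimulated groups lie above the naive mean of their genotype in every panel, WT from 6438 to between 12424 and 12760 CPM in all. Naive and stimulated libraries overlap only in complex IV of KO cells, under the very weak stimulus at 48 h. Over all complexes the KO groups have the lowest and the TG groups the highest means at 48 h.

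Stimulation was tested gene by gene as the mean of the 4 stimulated groups against the naive group of the same genotype. In WT cells 70 of the 79 tested members (88.6%) rose and 2 fell, while 39.3% of all 13709 genes tested rose and 42% fell. The median log2 change of the members was 0.93, against -0.04 for all genes, and 36 members changed at least 2-fold. The rises were spread over all complexes: 31 of 35 members of complex I (median 0.80), 4 of 4 of complex II (0.89), 7 of 8 of complex III (1.16), 11 of 14 tested of complex IV (1.14) and 16 of 17 of complex V (0.98). Uqcrh, Ndufa3, Ndufb11, Ndufa13, Atp5h, Cox6a2 and Cox7a1 did not pass the test, with log2 values from -0.04 (Uqcrh) to 0.71 (Cox7a1). The intronic share of counts moved with this comparison: it averaged 28.1% in naive and 14.5% to 16.5% in stimulated WT groups, and its part in the result was not tested.

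In complex I the largest rises were those of Ndufa12 and Ndufb6, accessory subunits of the matrix arm and the membrane arm. Ndufa12 (chr10:94199035-94221440) had 12.8, 10.4 and 9.52 CPM in the naive WT libraries. In the 16 stimulated WT libraries the lowest had 36.9, the median was 41.9 and the highest had 47.5 CPM, so that every stimulated library was above every naive one. Its log2 change was 1.94 ± 0.12 (SE; adjusted p = 1.17e-20) in WT, 1.68 in KO and 1.74 in TG cells. Ndufb6 rose by 1.83 ± 0.14 in WT (adjusted p = 4.74e-17) and by 1.53 in both other genotypes. The genes of the catalytic core rose by between 0.48 (Ndufs7) and 1.09 (Ndufv2) in WT cells, with Ndufs1, the largest iron-sulfur subunit, at 0.51 and the flavoprotein gene Ndufv1 at 0.86. Ndufa6, an accessory subunit that docks the acyl carrier protein, went the other way. It had 87.6, 71.8 and 64.6 CPM in naive WT libraries and 49.3 at the lowest, 59.9 at the median and 76.9 CPM at the highest of the stimulated ones, which overlap. Ndufa6 fell by 0.31 in WT (adjusted p = 0.00991), by 0.53 in KO and by 0.56 in TG cells.

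All 4 subunits of complex II, the enzyme shared by the chain and the tricarboxylic acid cycle, rose in every genotype. Sdhd (chr9:50596340-50603849), a membrane anchor, had 66.6, 68.9 and 56.7 CPM in naive WT libraries and 168, 208 and 245 CPM at the lowest, median and highest of the 16 stimulated ones, with no overlap. Its change was 1.68 ± 0.10 (SE; adjusted p = 9.13e-21) in WT, 1.46 in KO and 1.53 in TG cells. The iron-sulfur subunit Sdhb rose by 1.04 ± 0.09 (adjusted p = 9.92e-15), 0.93 and 0.94. The other anchor, Sdhc, rose by 0.74, 0.47 and 0.43, and the flavoprotein Sdha, which oxidises succinate, by 0.46 ± 0.08 (adjusted p = 3.5e-07), 0.23 and 0.21. The order Sdhd, Sdhb, Sdhc, Sdha was the same in WT, KO and TG cells.

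Complex III changed most in its small subunits. Uqcr10 rose by 1.73 ± 0.13 on the log2 scale in WT, 1.47 in KO and 1.43 in TG cells, and Uqcrq by 1.61 ± 0.15, 1.33 and 1.45. Uqcrq had 44.4, 40.8 and 36.4 CPM in the naive WT libraries against 98.7, 125 and 147 CPM at the lowest, median and highest of the stimulated ones, which do not overlap. The Rieske iron-sulfur protein gene Uqcrfs1 rose by 1.12 ± 0.08 (adjusted p = 5.67e-17) in WT, by 0.68 in KO and by 1.26 in TG cells. The core protein genes Uqcrc1 and Uqcrc2 rose by 0.81 and 0.85 in WT cells. Uqcrh, the hinge protein that helps cytochrome c dock, stayed out of this pattern, with -0.04 in WT and -0.23 in TG cells, neither called, and a fall of 0.31 in KO cells (adjusted p = 0.0371).

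In complex IV Cox5a and Cox7a2, both structural subunits around the mitochondrially encoded core, led the rises. Cox5a rose by 1.60 ± 0.11 in WT, 1.24 in KO and 1.32 in TG cells, and Cox7a2 by 1.43 ± 0.14 in WT cells, with 1.21 in KO and 1.20 in TG cells. Ndufa4, the subunit first assigned to complex I, rose by 1.27 in WT cells. Cox7a2l (chr17:83501917-83514333) had the largest fall of all members. It had 340, 288 and 247 CPM in naive WT libraries, 352, 254 and 432 in KO and 319, 293, 277 and 356 in TG libraries. After stimulation the lowest, median and highest of 16 libraries were 90.2, 112 and 138 CPM in WT, 88.8, 111 and 152 in KO, and 81.2, 96.7 and 120 in TG cells. Every stimulated library was below every naive one in all 3 genotypes. The fall was 1.40 ± 0.10 on the log2 scale in WT (adjusted p = 1.04e-17), and KO and TG cells gave -1.61 and -1.67.

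In complex V genes of both the catalytic head and the rotor ring rose. Atp5b (chr10:128083307-128090388) had 744, 658 and 663 CPM in naive WT libraries against 1854, 2105 and 2240 CPM at the lowest, median and highest of the stimulated ones, and the groups do not overlap. Its change was 1.61 ± 0.09 (adjusted p = 1.69e-22) in WT, 1.32 in KO and 1.45 in TG cells. Atp5a1 rose by 1.19 in WT cells. Of the 3 genes for the ring subunit c, which share 1 mature protein, Atp5g3 rose by 1.60 in WT, 1.31 in KO and 1.34 in TG cells, and Atp5g1 by 1.58, 1.42 and 1.26. Atp5g2 had 23.9 exonic against 307 intronic counts per library on average, so its row may hold little mature message. Atp5h, a subunit of the peripheral stalk, was not called in WT (0.10) and fell by 0.26 in TG cells (adjusted p = 0.0302).

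**Figure D2:**
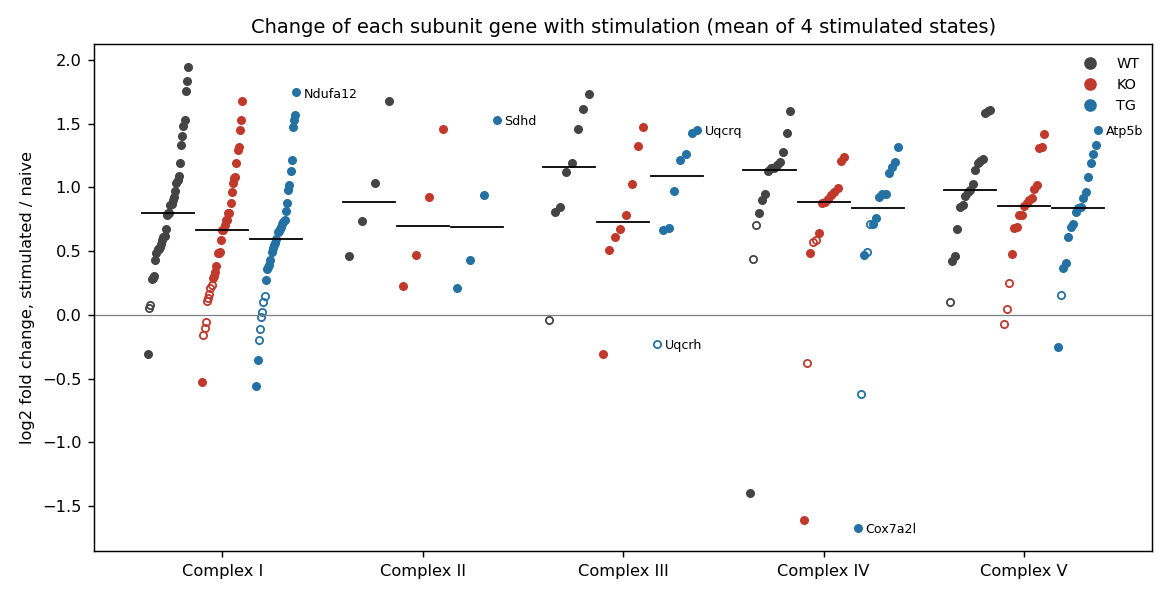
Log2 fold change of each tested member, stimulated against naive (vertical axis), by complex (horizontal axis) and genotype. Filled points passed an adjusted p of 0.05, open points did not, and the bars are medians. Most members of every complex lie above 0, with Ndufa12 at 1.94 in WT cells, and Cox7a2l lies alone at the bottom, at -1.40 in WT and -1.67 in TG cells.

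Families of alternative subunits showed a change of balance in 1 case. Cox7a2 made up 25.7% ± 0.759 of the summed CPM per kb of Cox7a1, Cox7a2 and Cox7a2l in naive WT cells (SD, n = 3) and 70.2% ± 1.26 to 71.6% ± 3.57 in the stimulated WT groups (n = 4 each). Cox7a2l made up 74.2% ± 0.808 of it in naive WT cells and 27.8% to 29.7% in the stimulated groups. Shares within families are also per length. The Cox7a2 share at 48 h was 65.6% (64.4% without replicate 3) and 66.4% in KO cells and 75.8% and 75.6% in TG cells, under the very weak and the weak stimulus. In the other families 1 gene dominated in every group: Cox6a1 held at least 99.8%, Cox6b1 at least 98.8%, and Atp5g3 between 84.2% and 88.9% of its family. Cox8a stood alone in its family but for the 9 counts of Cox8b, as did Cox7b and, but for 11 counts of Ndufa4l2, Ndufa4. Reads from similar copies, such as the Atp5g genes or Ndufs5 and Ndufs5-ps, could have been split or dropped by the counting, which the sources used here do not describe.

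The same test called 61 rises and 3 falls in KO cells (all genes: 38.3% higher, 40.6% lower), with a median of 0.75, and 64 rises and 4 falls in TG cells (40.1% and 43.2%), with a median of 0.71. Falls outside WT cells were those of Uqcrh in KO and of Ndufa3 (-0.35) and Atp5h in TG cells. Whether a member's change with stimulation differed between genotypes was tested as an interaction. For KO minus WT, 0 members were called and 0.168% of all genes, and DESeq2 called 1 member. At an unadjusted p under 0.05 there were 11 of 79 members, all negative, beside 1406 of all 13709 genes in either direction. The difference was below 0 for 76 of 79 members, with a median of -0.23, and that of Uqcrfs1 was -0.45 ± 0.11 (adjusted p = 0.0694). For TG minus WT, 0 members were called against 6.18% of all genes, and DESeq2 called 1 member. At an unadjusted p under 0.05 there were 18 of 79 members, all negative, beside 2757 of all 13709 genes in either direction. The difference was below 0 for 72 of 79, with a median of -0.25. Both comparisons share the WT libraries, 3 of which are naive, so the 2 medians are not independent. Here and below, the members were measured in the same libraries, so a count of signs is not a count of independent results.

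The count table of introns allowed the stimulated and naive WT cells to be compared within the same libraries. The change in exonic counts exceeded that in intronic counts for 54 of 76 members that could be tested and was smaller for 5, while 26.9% of all 11350 genes were called in the former and 30.1% in the latter direction. The median difference was 0.83 on the log2 scale. Each region was scaled by its own totals and TMM factors, so an intronic change is relative to all intronic counts of a library. These totals ran from 6.75 M to 9.11 M in naive and from 2.95 M to 4.39 M in stimulated WT libraries. A scaled intronic change near 0 thus goes with fewer intronic reads. Intronic counts of the members were called higher for 24 and lower for 14 of 76, with a median of 0.07. Among all genes 32% were called higher and 33.8% lower. The members' share of rises was close to this, and their share of falls was below it. Atp5md, a small membrane subunit of complex V, differed by 2.26, Ndufb2 of complex I by 2.17 and Cox5b of complex IV by 2.14, each with an intronic change below 0. Of complex II, Sdhb differed by 1.47 and Sdhc by 1.02, and of complex III Uqcrq by 1.55. Cox7a2l had a scaled intronic change near 0 beside its exonic change of -1.40, a difference of -1.42 ± 0.25 (SE, adjusted p = 2.34e-06). Ndufb3 (-0.53), Atp5mpl (-0.48), Atp5g2 (-1.11) and Cox6b2 (-2.56) also had a smaller change in exonic counts, the last with few counts. Intronic counts come from unspliced RNA, and the measured difference does not show which step of an RNA's life changed.

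**Figure D3:**
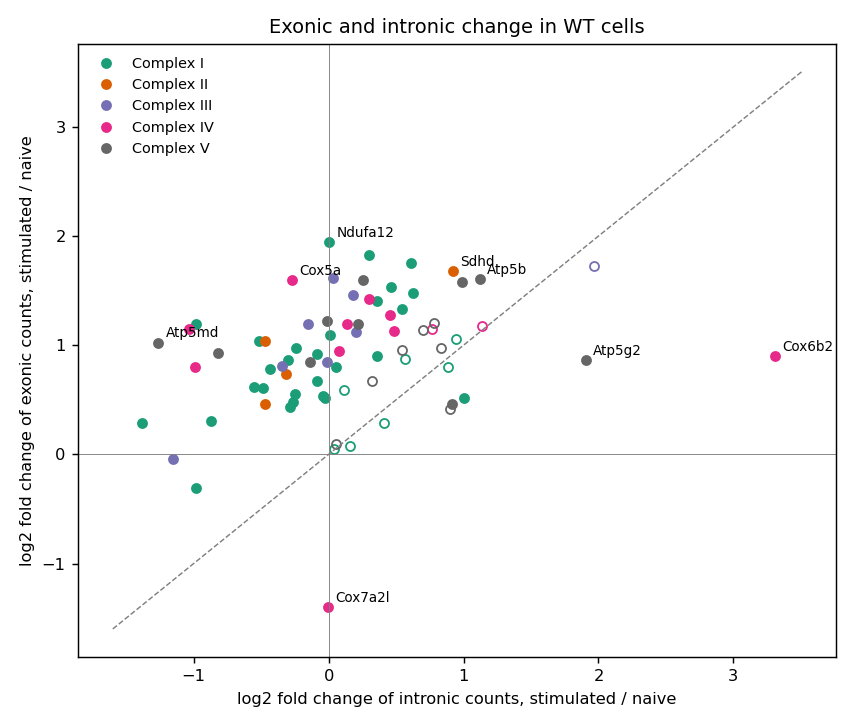
Log2 fold change of exonic counts (vertical axis) against that of intronic counts (horizontal axis) for each member in WT cells, stimulated against naive. Each region was scaled on its own. Filled points passed the test of the difference between the 2 changes, and the dashed line marks equal change. Most members lie above the line, and Cox7a2l lies below it with an exonic change of -1.40.

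Genes that build, feed or regulate the chain were taken from 7 lists, whose counts are to be read against 39.3% of all genes higher and 42% lower. With stimulation of WT cells, 4 of the 5 subunits and carriers outside the name pattern rose, among them Cycs (cytochrome c, 2.16), Cyc1 (cytochrome c1 of complex III, 1.21) and Ndufab1 (the mitochondrial acyl carrier protein). Of the assembly factors, 12 of 17 for complex I rose and 2 fell (Nubpl, which delivers iron-sulfur clusters, 2.20), 5 of 10 for complexes II and III rose and 2 fell (Uqcc2 1.63, Uqcc3 -0.89), and 14 of 21 for complexes IV and V rose and 2 fell (Tmem70, a complex V assembly factor, 1.69). Coenzyme Q synthesis had 9 rises and 1 fall of 10 (Coq4 2.09, Coq3 2.10), and the tricarboxylic acid cycle with pyruvate dehydrogenase 15 rises and 0 falls of 17 (fumarase, Fh1, 1.97). The regulators of mitochondrial gene expression were mixed, with 10 rises and 5 falls of 17: Tfam, which packages mitochondrial DNA, rose by 0.82, and Polg2, the accessory subunit of its polymerase, changed by -1.89. In the same comparison all 7 B cell markers fell (median -3.53), as did 6 of 6 NK (-4.14), 10 of 10 myeloid (-6.40), 4 of 4 erythroid (-7.47) and 2 of 2 CD8 T cell markers (-1.49), and 4 of 5 CD4 T cell markers (median -0.80). Summed over their lists, NK markers ran from 42.2 to 150 CPM in naive and from 2.96 to 64.2 in stimulated libraries, erythroid markers from 90.2 to 521 and from 0.154 to 10.5, and CD8 markers from 29.2 to 67.1 and from 6.51 to 26.1 CPM. The part of these cells in the members' change was not tested.

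Between 24 h and 48 h the members moved little as a group in WT cells. There 12 were higher and 13 lower at 48 h, against 28.6% and 26% of all genes, which is below the background in both directions, with a median of 0.01. In TG cells 14 were higher and 6 lower (26.7% and 26.2% of all genes). In KO cells 5 were higher and 37 lower (46.8% of the members), while 29.3% of all genes were higher and 25.8% lower, and the median was -0.18. This test took the very weak and weak libraries of a replicate number as separate. If these share cells, its p-values are too small. The falls in KO cells took in 17 of 35 members of complex I, 4 of 4 of complex II, 5 of 8 of complex III, 4 of 14 of complex IV and 7 of 17 of complex V. Without KO replicate 3 the test called 49 members in KO cells. Within replicates 1 and 2 alone 61 members were called (56 lower), and within replicates 3 and 4 alone 7 (4 lower). A test of the difference in time course between KO and WT cells, added after the values were seen, called 0 members (0.781% of all genes, DESeq2 0). Of 79 differences 77 were below 0, with a median of -0.20 (0.0049 over all genes). At an unadjusted p under 0.05 there were 19 members, beside 1389 of all 13709 genes. Without KO replicate 3 that test called 1. The same test for TG minus WT called 1 member (1.85% of all genes; DESeq2 1), Ndufs1, at 0.31 ± 0.08 (SE; adjusted p = 0.0361). In TG cells the count of 20 fell to 13 without TG replicate 1, and within replicates 3 and 4 alone it was 8 in WT and 9 in TG cells.

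Some members were called between 24 h and 48 h in all genotypes or in some of them. Ndufv3, an accessory subunit of the flavoprotein part of complex I, had 65.5 and 56.4 CPM at 24 h and 141 ± 27.7 and 136 ± 38.7 CPM at 48 h in WT cells (very weak, then weak stimulus; n = 4 each). It was higher at 48 h by 1.19 ± 0.12 in WT (adjusted p = 1.05e-11), 0.82 in KO and 1.19 in TG cells, and with naive libraries at 70.2, 68.9 and 65.0 CPM its 24 h level was at or below the naive one. Atp5g1 fell from a peak at 24 h, by 0.54 in WT, 0.66 in KO and 0.44 in TG cells. Ndufa5, of the matrix arm of complex I, fell by 0.38, 0.60 and 0.29, and Atp5e, the epsilon subunit of complex V, by 0.25, 0.40 and 0.25. Sdhd fell by 0.29 in WT and 0.45 in KO cells and was not called in TG cells (-0.07). Cox7a2 rose by 0.35 in WT and 0.39 in TG cells and was not called in KO cells (0.01). Cox6c, another structural subunit of complex IV, rose by 0.38 and 0.37 in WT and TG cells and was not called in KO cells (0.18). In KO cells falls of about the same size were seen for Uqcr11 (-0.42), Uqcrq (-0.41), Ndufa4 (-0.40), Cox5a (-0.35) and Sdhc (-0.34). None of these was called in WT or TG cells. A call in 1 genotype and not in another is no test of a difference between them. The tests of the difference in time course from WT cells called no member named in this paragraph. The scarce forms Cox7a1, Cox6a2 and Cox6b2 were called higher at 48 h in all 3 genotypes, at levels of at most 2.10, 1.23 and 4.51 CPM in any stimulated library.

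For the lists around the chain, the counts at 48 h against 24 h in WT cells are to be read against 26% of all genes lower and 28.6% higher, and none of the lists was tested as a whole. Of the lists, 9 of 17 genes of the tricarboxylic acid cycle list were lower and 0 higher (Suclg2 -0.66, Ogdh -0.57), 5 of 10 of coenzyme Q synthesis were lower (Coq4 -0.71), 7 of 17 complex I assembly factors were lower and 2 higher (Ndufaf4 -0.82), and 12 of 17 regulators were lower and 3 higher (Lrpprc -0.54). Of the assembly factors of complexes II and III 4 of 10 were lower and 0 higher, of those of complexes IV and V 7 of 21 were lower and 3 higher, and of the subunits outside the name pattern 1 of 5 was lower and 2 were higher. Cyc1, the cytochrome c1 subunit of complex III, was lower by 0.37.

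The strength of the stimulus made no difference that the test could call. Weak against very weak stimulus gave 0 called members and 0 called genes in each genotype (0% of all genes with edgeR; DESeq2 also called 0 members). At an unadjusted p under 0.05 there were 0 members in WT, 0 in KO and 5 in TG cells, beside 563, 1183 and 639 of all 13709 genes. Same-numbered libraries moved together here, and with the replicate number as a block 0 members were called as well, against 0.212% of all genes in WT, 0.525% in KO and 0.175% in TG cells.

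**Figure D4:**
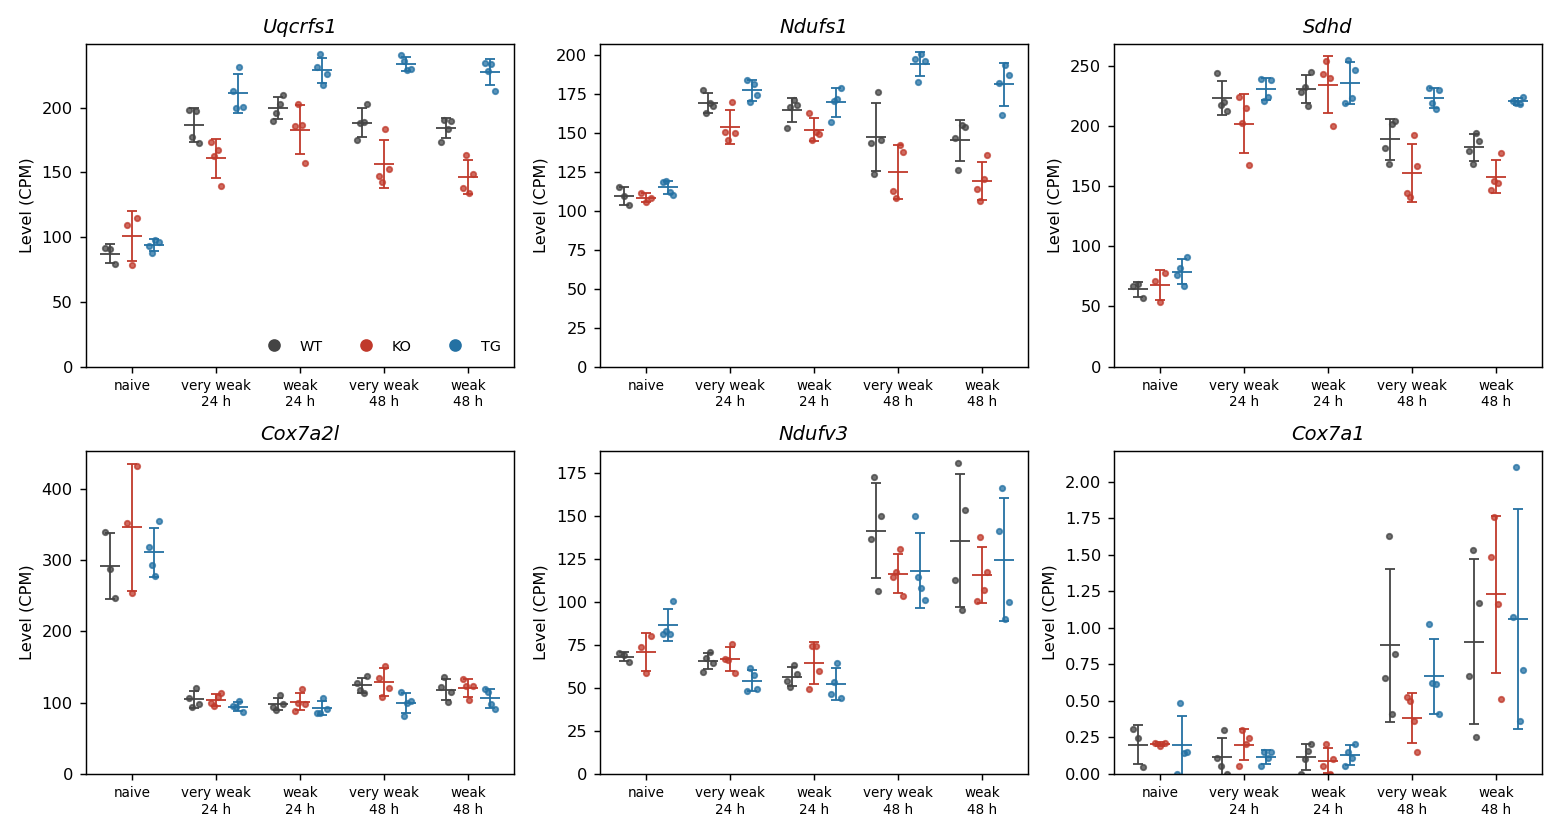
CPM (vertical axes, linear) of Uqcrfs1, Ndufs1, Sdhd, Cox7a2l, Ndufv3 and Cox7a1 in the 15 groups (horizontal axis), 1 point per library with the mean and SD. At 48 h the means of Uqcrfs1, Ndufs1 and Sdhd are highest in TG and lowest in KO cells, Cox7a2l is high in naive cells, Ndufv3 is higher at 48 h than at 24 h, and Cox7a1 stays at or below 2.10 CPM.

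In naive cells KO and WT did not differ in any member by the test: 0 were called, against 0.0365% of all genes. DESeq2 called 0, and 2 members had an unadjusted p under 0.05, beside 651 of all 13709 genes. The log2 difference was above 0 for 70 of 79 members. In TG against WT naive cells 6 members were higher and 0 lower (4.33% and 3.5% of all genes), so 6 of 79 is somewhat above the background. They were Cox5a (0.44 ± 0.11, SE; adjusted p = 0.0107), Atp5g3 (0.44), Cox6a1 (0.44), Ndufa9 (0.39; an accessory subunit near the quinone site), Atp5a1 (0.34 ± 0.08; adjusted p = 0.00467) and Atp5b (0.30). Atp5b had 744, 658 and 663 CPM in WT and 817, 836, 757 and 976 CPM in TG libraries, and these do not overlap. The difference was above 0 for 76 of 79 members, with a median of 0.30. At an unadjusted p under 0.05, 42 members were higher and 0 lower, beside 1639 and 1358 of all 13709 genes. The summed CPM of all complexes was 20.4% above WT with overlapping libraries. Intronic shares of counts were 29.0%, 30.7% and 24.5% in naive WT and 28.6%, 25.8%, 25.6% and 24.6% in naive TG libraries, and their part was not tested. Among the cell markers Ncr1 of the NK list was lower in naive TG cells (-1.15), and its part in the result was not tested. Leaving out a library moved the count between 1 (without WT replicate 2 or 4) and 18 (without TG replicate 3); it was 2 without TG replicate 4 and 3 without TG replicate 1 or 2.

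At 24 h no member differed by the test from WT cells in KO (0 called, 1.71% of all genes; 1 at an unadjusted p under 0.05; DESeq2 0) or in TG cells (0 called, 5.3% of all genes; 4 at an unadjusted p under 0.05; DESeq2 1). These tests, and those at 48 h, summed the 2 libraries of each genotype, time and replicate number and set 4 sums against 4. With the replicate number as a block, 1 member was called in TG cells, against 11.4% of all genes. In both genotypes the share of members called was below that of all genes. At an unadjusted p under 0.05 there were 1751 of all 13217 genes in KO and 2531 in TG cells.

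At 48 h subunits of 4 complexes were lower in KO cells. Of 79 members, 11 were lower than in WT cells and 0 higher, against 2.82% and 3.71% of all genes, and 78 of 79 differences were below 0, with a median of -0.21. In complex I they were Ndufb3 (-0.38), Ndufa12 (-0.28), Ndufs1 (-0.27) and Ndufa9 (-0.21), in complex III Uqcrb (-0.37) and Uqcrfs1 (-0.31 ± 0.06, SE; adjusted p = 0.00336), in complex IV Cox8a (-0.34), Cox7a2 (-0.32) and Cox5a (-0.29), and in complex V Atp5mpl (-0.41) and Atp5b (-0.24). Uqcrfs1 (chr13:30540312-30545316), averaged over the stimuli, had 174, 189, 186 and 196 CPM in WT replicates 1 to 4 and 143, 153, 159 and 151 CPM in KO replicates, without overlap. Ndufs1 (chr1:63143592-63176822) had 145, 125, 165 and 149 CPM in WT and 113, 107, 131 and 137 CPM in KO cells, which overlap. Atp5b had 2158, 2219, 2188 and 2057 CPM in WT and 1993, 1762, 1903 and 1708 CPM in KO cells, with every KO value below every WT value. Cox8a, whose product is among the smallest subunits of complex IV, had 178, 191, 174 and 188 CPM in WT and 137, 133, 165 and 146 CPM in KO cells, again without overlap. Atp5mpl, a small membrane subunit of complex V, had 68.9, 90.8, 92.0 and 106 CPM in WT and 57.8, 55.6, 85.5 and 72.0 CPM in KO cells, which overlap. In Ndufb3, of the membrane arm of complex I, KO replicate 3 (51.8 CPM) was above WT replicate 1 (45.6 CPM), while KO replicates 1, 2 and 4 (36.5, 33.9 and 42.5 CPM) were below all WT values. Sdhd, at 145, 148, 172 and 172 CPM in KO against 180, 168, 197 and 196 CPM in WT cells, was not called (-0.23; adjusted p = 0.0638), so complex II had no called member. Cytochrome c1 (Cyc1, -0.39) and 3 of 17 genes of the tricarboxylic acid cycle list (among them Suclg1 at -0.40 and Dlat at -0.25) were also lower, and 0 of these 17 higher. Coq5 of coenzyme Q synthesis (-0.35) and the assembly factors Ndufaf1 (-0.27) and Cox19 (-0.32) were lower, and of the regulators Tfb2m (0.42) and Gabpb1 (0.21), a subunit of GABP, were higher. Of the markers of other blood cells 0 were called in this comparison.

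The number of KO calls at 48 h moved widely with the libraries used. It was 39 without KO replicate 3, 3 without KO replicate 1, 2 without WT replicate 2 or 3, and 1 without WT replicate 4 or KO replicate 2. With the replicate number as a block it was 28, all lower, against 6.99% of all genes in that direction. Under the weak stimulus the KO sums at 48 h were below those of WT cells by 12.6% in complex I, 10.6% in II, 15.5% in III and 12.3% in V, with no overlapping library, and by 14.9% in IV, where libraries overlapped. Under the very weak stimulus they were below WT by 11.6% over all complexes with overlap, and by 18.9% without replicate 3, with no overlap. By complex these differences were 10.1% with and 19.4% without that replicate in I, 7.47% and 12.8% in II, 15.9% and 22.8% in III, 14.8% and 25.1% in IV, and 10.9% and 16.7% in V. Without it, libraries overlapped in complex II and in no other. Replicate 3 was singled out after its high sums were seen, so the wider differences and smaller overlap without it follow from that choice. No WT library was left out of these sums, and replicate 3 did not pass Dixon's criterion for a library far from the others. Replicate 3 under the very weak stimulus is the library with the lowest intronic share. Under that stimulus the share ran from 12.4% to 15.9% in KO and from 13.1% to 17.3% in WT libraries at 48 h. Under the weak stimulus it ran from 14.9% to 16.3% in KO and from 14.5% to 16.7% in WT libraries. The part of the intronic share in these genotype differences was not tested.

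In TG cells at 48 h, 4 members were higher than in WT and 0 lower, which is 4 of 79 beside 6.4% and 7.01% of all genes and so no more than the background. They were Ndufs1 (0.37 ± 0.08, SE; adjusted p = 0.00233), Uqcrfs1 (0.32 ± 0.06; adjusted p = 0.00133), Sdhd (0.27; adjusted p = 0.0186) and Atp5pb, a subunit of the peripheral stalk of complex V (0.22; adjusted p = 0.0418). Uqcrfs1 had 238, 232, 232 and 221 CPM in TG replicates 1 to 4, above all WT replicates. Ndufs1 had 190, 172, 197 and 192 CPM and Sdhd 226, 219, 216 and 227 CPM in TG cells, both above the highest WT replicate (165 and 197 CPM). With the block 8 members were higher and 1 lower, against 11% and 11.1% of all genes. Leaving out WT replicate 1 or 2 or TG replicate 2 or 4 left 2 members called. Of the list of the tricarboxylic acid cycle, 6 of 17 were higher and 0 lower, led by Suclg1 (0.47). Cell markers also differed in this comparison. Under the very weak stimulus the summed NK markers were at least 30.2 CPM in TG and at most 23.9 CPM in WT libraries. Summed CD4 T cell markers were there at most 1603 CPM in TG and at least 1644 CPM in WT libraries. Under the weak stimulus the NK sums overlapped, with 19.6 to 64.2 CPM in TG and 15.6 to 21.4 CPM in WT libraries. The CD4 sums were at most 1467 CPM in TG and at least 1472 CPM in WT libraries there. Gzma of the NK list was higher in TG cells (1.74), and Cd3e (-0.56) and Cd8a (-1.12) were lower. Intronic shares of counts at 48 h ran from 12.8% to 16.4% in TG and from 13.1% to 17.3% in WT libraries. The part of the markers and of this share in the result was not tested. The KO and TG comparisons share the WT libraries.

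**Figure D5:**
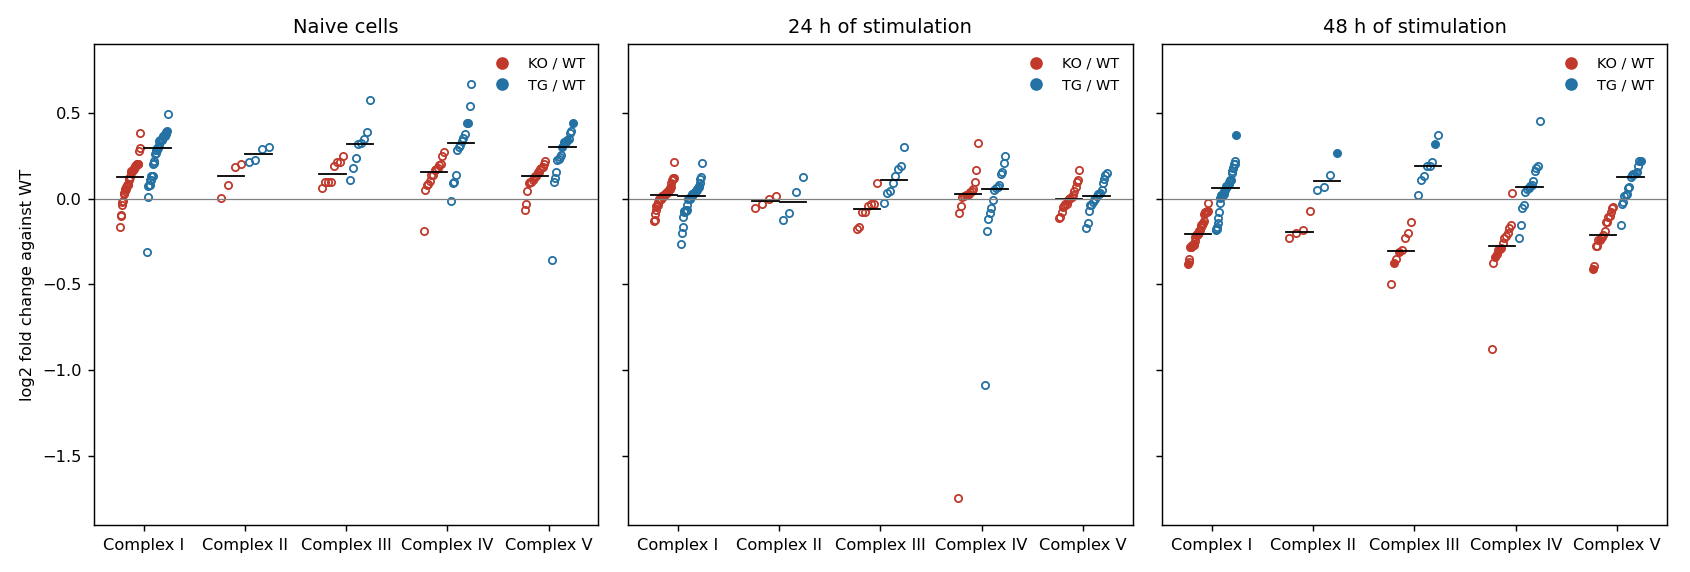
Log2 difference of each tested member from WT cells (vertical axis) by complex (horizontal axis) in KO and TG cells, for naive cells, 24 h and 48 h. Filled points passed an adjusted p of 0.05, open points did not, and the bars are medians. At 48 h nearly all KO points lie below 0 (median -0.21, 11 called), in naive cells most TG points lie above 0 (median 0.30, 6 called), and at 24 h none is filled.

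Over all 4 stimulated states, summed per genotype and replicate number into 4 pools each, Uqcrfs1 was the only member called between KO and WT cells (-0.23 ± 0.05, SE; adjusted p = 0.016), with 2.34% of all genes called lower and 3.59% higher. The mean levels of the pools were 184, 188, 193 and 194 CPM in WT and 161, 168, 168 and 150 CPM in KO cells, with no overlap. The call was lost without WT replicate 3 or 4 (adjusted p = 0.053 and 0.051), and 2 members were called without KO replicate 1 and 6 without KO replicate 3. In all libraries 16 members had an unadjusted p under 0.05, all lower, beside 1323 of all 13567 genes that were lower. The block called 9, all lower, against 9.1% of all genes. TG pools had 230, 226, 228 and 217 CPM of Uqcrfs1, above all WT pools (0.25 ± 0.05; adjusted p = 0.00586). TG cells also had more Ndufs1 (0.20; adjusted p = 0.0403) and less Cox7a2l (-0.19; adjusted p = 0.0294). These 2 higher and 1 lower members stand beside 6.32% and 7.25% of all genes, and the block called 9 higher and 2 lower beside 14.5% and 14.8%. Without WT replicate 1, 2 or 4 or TG replicate 2, 1 member was called. Of the cell markers Cd4 was lower in TG cells (-0.29) in this comparison. The pools of Ndufs1 had 155, 145, 168 and 158 CPM in WT, 135, 126, 146 and 143 in KO and 180, 171, 187 and 184 CPM in TG cells. Those of Cox7a2l had 112, 109, 112 and 112 CPM in WT, 114, 107, 120 and 114 in KO and 104, 93.5, 101 and 93.0 CPM in TG cells, so the TG pools lay below all others.

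Set directly against KO cells, stimulated TG cells had 31 members higher and 4 lower (39.2% and 5.06% of the members), while 20.9% of all genes were higher and 23.4% lower. Complex III had 7 of 8 members higher, complex I 10 of 35, complex II 2 of 4, complex IV 5 of 14 and complex V 7 of 17. Uqcr11, a small subunit of complex III, differed most (0.64 ± 0.12, SE; adjusted p = 0.00121), followed by Uqcrfs1 (0.47 ± 0.05; adjusted p = 1.37e-05), Ndufs1 (0.39) and Ndufs7 (0.37), a core iron-sulfur subunit of complex I. Uqcr11 had 41.4, 49.1, 62.5 and 44.9 CPM in the KO pools and 77.7, 85.5, 81.7 and 65.1 CPM in the TG pools, which do not overlap, and KO replicate 3 was the highest of its genotype. Others were Atp5g3 (0.35), Cox8a (0.33), Atp5b (0.31), Cox5a (0.31), Sdhd (0.27) and Sdhb (0.23). The 4 lower members were Ndufa5 (-0.35), Cox7a2l (-0.22), Ndufa7 (-0.21) and Atp5e (-0.21). Ndufa5 had 62.0, 59.3, 74.8 and 59.0 CPM in the KO pools and 50.5, 47.4, 54.8 and 48.5 CPM in the TG pools, with no overlap. Around the chain, 11 of 17 genes of the tricarboxylic acid cycle list were higher and 1 lower, 4 of 5 subunits outside the name pattern were higher (Cyc1 0.53, Cycs 0.37), and the regulators split evenly with 3 higher and 3 lower of 17 (Esrra, a nuclear receptor of energy metabolism, 0.70, and Tfb2m, a mitochondrial transcription factor, -0.69). The count was 46 without KO replicate 3 and 22 without KO replicate 4. All 5 CD4 T cell markers were lower in TG than in KO stimulated cells, with a median of -0.48, and 1 of 7 B cell and 2 of 6 NK cell markers were higher; their part in the result was not tested.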

How the data were processed

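The authors deposited whole-number read counts per gene, 1 table of exonic and 1 of intronic reads, with no normalization. FastQC 0.11.5, STAR 2.5.2a, R 3.5, edgeR 3.24.3 and build mm10 are named per the submitters' processing notes. How reads were assigned to genes, on which annotation and with which strand setting, is not given here, and reads of overlapping or antisense genes may be mixed. Gene IDs were matched to RefSeq symbols for 23968 of 24028 rows. The intron count exceeded the other in 14.1% of values, so intronic reads are not part of the exonic table. Reads carry no molecular identifiers.

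The main test was the quasi-likelihood F test of edgeR 4.0.16 in R 4.3.3, after TMM scaling (factors 0.939 to 1.06) and filterByExpr filtering, with Benjamini-Hochberg adjustment over all genes. A gene was called at an adjusted p under 0.05. All 58 libraries entered 1 fit (13709 genes, 43 residual degrees of freedom). Genotypes after stimulation were compared on sums per genotype, time and replicate number (13217 genes, 18 degrees of freedom) or over the 4 stimulated states (13567 genes, 9 degrees of freedom). Stimulation, time and stimulus strength were tested on single libraries, with those of the same replicate number taken as separate although they may share cells. The comparison of exonic with intronic change had a term for each library, TMM scaling within each region and 11350 genes. CPM are counts per 1000000 of the library total times its TMM factor, and SD are over libraries. Tests were tried on simulated data. Alternatives were DESeq2 1.42.0, limma-voom (limma 3.58.1) for the intron comparison, RLE factors, library totals, no filter, single libraries averaged, leaving out each replicate, a replicate block and, added after seeing the data, replicates 1 and 2 or 3 and 4 alone.

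Same-numbered libraries deviated together in the strength comparisons, in the time course of KO cells and in all genotype comparisons after stimulation, where every pair correlated over 0.1 (0.214 to 0.813); this pairing comes from the data, since the labels do not say what the numbers mark. In the other comparisons at least 1 pair did not.

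The members and lists were chosen with earlier results of these data known. Named with values were, per comparison and complex, up to 2 called members with the largest rise and 2 with the largest fall at a group mean of at least 5 CPM, members called against their complex after stimulation, the families of alternative subunits, the Sdh genes, and up to 2 called genes per list by smallest adjusted p. Others named were chosen after their values were seen. The value of 1 gene of a list is not reported here.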

Additional observations from a re-analysis of the deposited data

Results flagged for a closer look

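The change from 24 h to 48 h of Ndufs1, the largest iron-sulfur subunit of complex I, differed between TG and WT cells by 0.31 ± 0.08 (SE) on the log2 scale in the 58-library fit (adjusted p = 0.0361). The test of this difference was added after the values were seen. Ndufs1 fell by 0.19 in WT cells and was not called in TG cells (0.11). With 1.85% of all genes called, it was the only member called. The adjusted p was above 0.05 in 9 of the alternatives tried, 7 of which left out 1 replicate. By Dixon's criterion 0 of the sums by complex in the groups of 4 held a library far from the others; the high sums of KO replicate 3 under the very weak stimulus at 48 h did not pass it.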

How the results depend on the processing

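No value changed direction under any alternative. Of the counts of called members over all alternatives, 218 stayed within 1.5 times of the value given and 74 did not. The 90 sums by complex under library totals alone moved by less than 1 SD. Single named members were checked under each alternative that applied. In 1671 of these checks the member kept its side of the threshold and in 280 it lost the call. With the replicate number as a block the counts were 28 for KO against WT at 48 h, 9 for TG against WT at 48 h, 1 at 24 h, 10 in naive cells, 9 and 11 for KO and TG against WT over the stimulated states; it moved no other count by over 1.5 times. DESeq2 gave 18 for KO at 48 h, 16 for naive TG, 1 for TG at 24 h, 3 and 7 for KO and TG stimulated, and 1 for each difference in activation. Single libraries averaged gave 31, 10, 1, 15 and 17 for KO at 48 h, TG at 48 h, TG at 24 h, KO and TG stimulated. No filter gave 3 for naive TG, 3 for KO at 48 h, 1 for TG stimulated and 0 for the time course of TG minus WT. Library totals alone gave 19 for naive TG and 1 for the difference in activation of TG minus WT, and RLE factors gave 1 for the latter.

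Within replicates 3 and 4 alone the counts were 8, 7 and 9 for the time course of WT, KO and TG cells, 0 for KO and TG at 48 h and for both against WT over the stimulated states, 11 for TG against KO and 0 for the time course of TG minus WT. Within replicates 1 and 2 they were 2 for KO at 48 h, 0 for KO and 1 for TG stimulated. Leaving out 1 replicate gave 1 to 18 for naive TG, 1 to 39 for KO at 48 h, 2 to 4 for TG at 48 h, 0 to 6 and 1 to 2 for KO and TG stimulated, 22 to 46 for TG against KO, 13 to 19 for the time course of TG cells, 0 to 2 for each difference in activation and 0 to 1 for each difference in time course. Why these counts moved was not tested.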
